A study of Mus musculus with 5 samples.

Results

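The Zfp mRNAs are the transcripts of mouse genes whose symbol is Zfp followed by a number, most of which encode C2H2 zinc finger proteins. All adenosines on an exon of such a protein-coding gene in the mm10 GENCODE M21 annotation were taken, on the strand of the call, and Zfp42 was left out. Of 393 Zfp genes in the annotation, 15 had at least 1 position in the deposited files. The METTL3 inhibition dataset held 14 of them among 2607 protein-coding genes, and 3406 of their 3526 positions had more than 25 valid calls in both libraries. The Mettl5 dataset held 4 of them among 1009 protein-coding genes, and 3 were in both datasets.

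Poly(A) RNA of mESCs (mouse embryonic stem cells) was read directly on nanopores, and m6A was called on the native molecules, with 1 library per line and treatment. The METTL3 inhibition dataset compared E14 mESCs given 30 µM STM2457, an inhibitor of the METTL3 methyltransferase, for 48 h with cells given 0.025% v/v DMSO. Both libraries, labelled WT for genotype, came from 1 engineered line that carries the reporters 2C::3xtbGFP-PEST and Zscan4::mCherry-PEST, a Dox::APOBEC1-YTH-HA-IRES-tdiRFP cassette that was not induced, and homozygous METTL3-FKBP12 F36V, also not induced. The Mettl5 dataset compared WT mESCs with Mettl5-KO clone #1 and Mettl5-KO clone #2, none of them treated, and both clones shared the WT library. The sources used here do not describe how the Mettl5 lines relate to the engineered line. Positions of the Mettl5 gene were not analysed here, so the knockout could not be checked on its target. Of 10 mESC markers, 9 were covered in the METTL3 inhibition dataset and 8 in the Mettl5 dataset, while of 10 markers of other cell types 1 (Vim, a cytoskeletal gene) and 0 were.

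A C2H2 zinc finger is a short protein fold held by a zinc ion, and arrays of such fingers bind DNA or RNA. Many of these genes carry their whole finger array on 1 long last exon. m6A is deposited on mRNA by the METTL3-METTL14 complex at DRACH motifs (D is A, G or U, R is A or G, H is A, C or U), and methylated adenosines are found mostly in long exons and around stop codons. Known functions differ between the genes measured here. Zfp207 (BuGZ) binds Bub3 and acts at kinetochores, Zfp598 is a ubiquitin ligase that acts on collided ribosomes, and Zfp622 and Zfp593 are relatives of yeast factors of the pre-60S ribosomal subunit. Zfp57 is a KRAB protein that keeps imprinted DNA methylated, Zfp296 is a partner of Klf4, Zfp706 takes part in the exit from self-renewal, and Zfp568 is a KRAB repressor of Igf2.

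The sites described most closely below are shown here with the 10 transcript bases on either side of the called adenosine, from GENCODE M21 on mm10. Capitals mark the 5 bases centred on the adenosine, and all coordinates are those of the printed bases.
Zfp57, chr17:37010507-37010527, plus strand, at the stop codon: gaagattcGGACTgatttctg
Zfp57, chr17:37010313-37010333, plus strand, the most methylated of its sites: atcttcatGAACCcgtggtgc
Zfp553, chr7:127235869-127235889, plus strand, methylated in every valid call in DMSO: ggctttggGGACAgttcagcc
Zfp771, chr7:127253853-127253873, plus strand, a finger copy near the start of the last exon: gcgtgcccGGACTgcggccgc
Zfp771, chr7:127254189-127254209, plus strand, a near-identical copy further in: gcgtgcccGGACTgcggacga
Zfp207, chr11:80395680-80395700, plus strand, measured in all 5 libraries: gaactattGGACAtttatttg
Zfp706, chr15:37000840-37000860, minus strand, the site of a long 3′ UTR: ttttaaacAAACTgttggtca
Zfp428, chr7:24515625-24515645, plus strand, outside DRACH and not lowered: gctgtagaTAATGtgaagggc
Zfp593, chr4:134244869-134244889, minus strand, outside DRACH and not lowered: ctgagaggGCAGCgggcatgg

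Zfp mRNAs carried more m6A per DRACH position than the average mRNA in these cells. Over their 276 covered DRACH positions, 17.8% of the valid calls were m6A in DMSO, against 7.87% over the 38029 positions of all protein-coding genes. Outside DRACH the levels were 1.03% and 0.938%. In DMSO, 64 of the 276 positions were at 25% or more, the level above which a position is called a site. This is 23.2 sites per 100 positions (95% exact binomial interval 18.3 to 28.6), against 14.4 for all genes (5464 of 38029). At least 1 such site was found in 12 of the 14 genes (85.7%), against 63.4% of all genes. Counted over all adenosines, the median gene was at 2.31%, against 1.52%. These are descriptions of 1 library, the intervals here and below cover counting error only, and no replicate measures the spread between cultures. Positions of 1 gene share its reads, so they are not independent.

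The genes differed widely among themselves. Zfp771 had the highest DRACH level in DMSO, 43.0% (interval 38.5 to 47.6) over 9 positions. Zfp64, known for its part in MLL leukaemia, followed with 32.8% (30.3 to 35.4) over 31 positions, and Zfp57 with 32.2% (30.2 to 34.3) over 21. The intervals of Zfp64 and Zfp57 overlap almost fully, and both lie below that of Zfp771.

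Zfp444 was at 28.1% (24.6 to 31.8) and Zfp296 at 26.0% (23.6 to 28.5), and their intervals overlap. A middle group held Zfp598 at 17.9%, Zfp207 at 16.2%, Zfp593 at 16.2%, Zfp622 at 15.01% and Zfp553 at 12.5%, each of which overlapped its neighbours in this order. Zfp428 was at 10.2% (8.37 to 12.4). Below it stood Zfp706 at 2.75% (2.23 to 3.34) and Zfp740 at 1.77% (0.215 to 6.25) over 3 positions. Zfp568 had 2 covered positions and no DRACH position. It showed 0 m6A calls of 52 in DMSO, which allows up to 5.77% (3 calls of 52), and 0 of 62 in STM2457, which allows up to 4.84%.

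**Figure D1:**
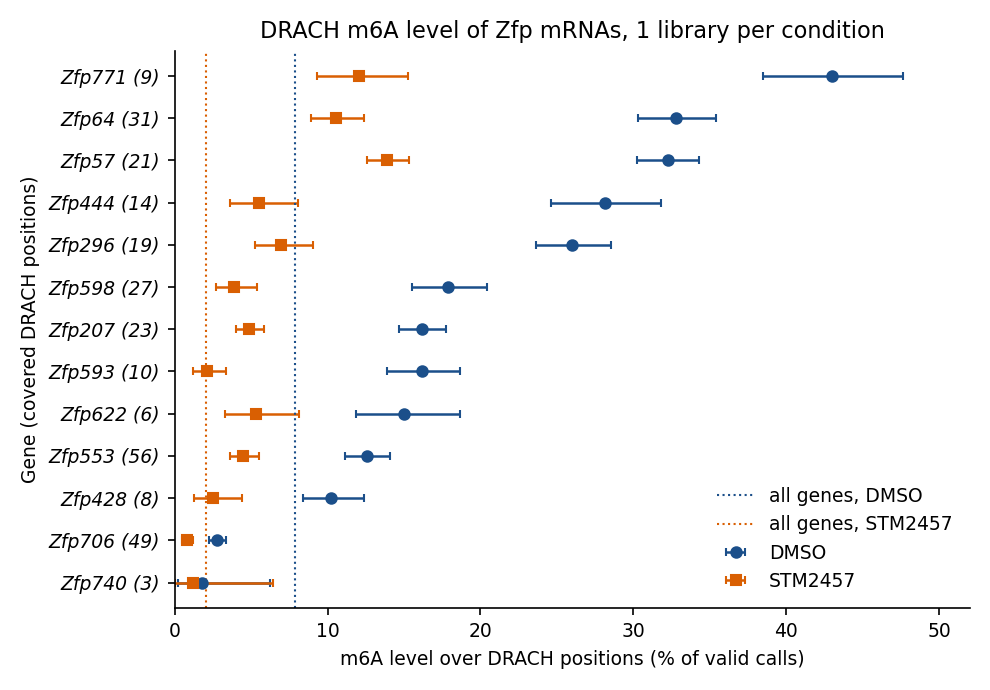
m6A level (x axis, percent of valid calls at DRACH positions) of the 13 Zfp genes with a covered DRACH position, in DMSO (circles) and STM2457 (squares), with 95% exact binomial intervals; dotted lines give the level over all protein-coding genes. In DMSO, 11 of the 13 genes lie above the all-gene level of 7.87%, and Zfp706 and Zfp740 lie below it.

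Among the 1584 genes with at least 10 covered DRACH positions, Zfp64 and Zfp57 ranked at the 96.1 and 95.6 percentile of the DRACH level, Zfp444 at 92.2 and Zfp296 at 90.03. Zfp706 ranked at 18.6. The remaining 4 Zfp genes with 10 positions, Zfp207, Zfp553, Zfp593 and Zfp598, lay between the 61.2 and 75.1 percentile.

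Most sites lay in coding sequence of the last exon. Sites are here counted as positions with more than 25 valid calls in both libraries and 25% or more m6A in at least one, in or out of DRACH, which gave 75 on 12 Zfp genes. On the transcript that held most covered positions of each gene, 71 of the 75 sites were on the last exon, and 52 (69.3%) on its coding part. For all genes these shares were 91.0% and 23.2% of 6159 sites. The 3′ UTR of the last exon held 19 Zfp sites (25.3%), against 67.1% of all sites.

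This placement had 2 parts that could be counted apart. The coding part of the last exon held 117 of the 276 covered DRACH positions of Zfp genes (42.4%), against 19.2% for all genes. Of those 117 positions, 43 (36.8%, interval 28.0 to 46.2) were at 25% or more in DMSO, against 17.3% (16.5 to 18.2) for all genes. In the 3′ UTR of the last exon, 18 of 128 positions were (14.1%, 8.55 to 21.3), against 18.8% (18.3 to 19.4). The interval of the Zfp genes therefore lay above that of all genes in coding sequence and overlapped it in the 3′ UTR. Zfp706 alone gave 49 of the 128 3′ UTR positions and 1 of their 18 sites, so the pooled 3′ UTR share leans on few genes. Of the 61 DRACH sites on last exons in DMSO, Zfp64 gave 13, most of them coding, and Zfp57 gave 10, all coding. The pooled coding share therefore leans on few genes as well, and was not recomputed without them. In the first 100 bases of last exons of 400 bases or more, 5.61% of 3263 DRACH positions of all genes were at 25% or more, and 5 of 29 of the Zfp genes. Past those bases, 39.8% of 98 coding Zfp positions were at 25% or more (30.04 to 50.2), against 28.9% (27.5 to 30.4), with intervals that just overlap.

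**Figure D2:**
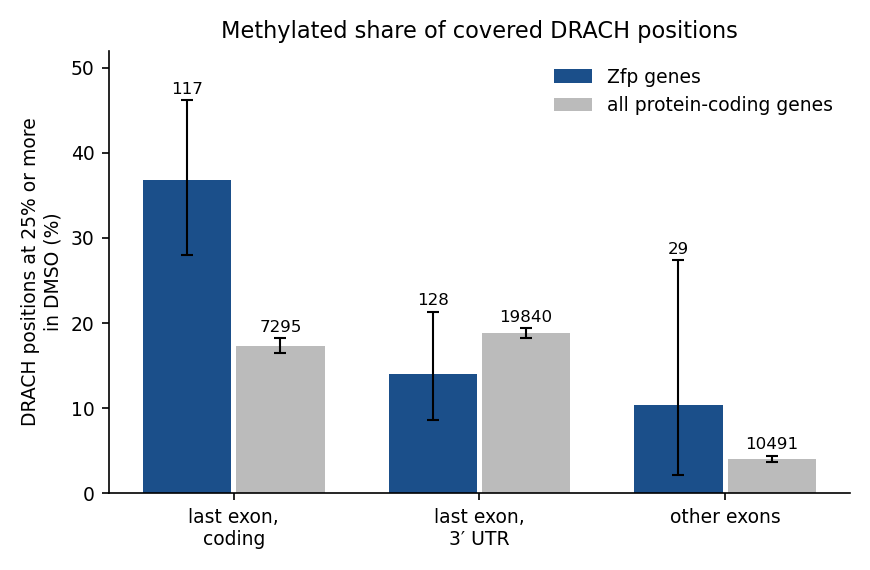
Share of covered DRACH positions at 25% or more in DMSO (y axis, percent) by place on the transcript, for Zfp genes and all protein-coding genes, with 95% exact binomial intervals and the number of positions above each bar. Zfp genes stand at 36.8% against 17.3% in last-exon coding sequence, and the intervals overlap in the 3′ UTR and in other exons.

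Few positions before the last exon passed the coverage limit. According to the paper, its limits favour sites near the 3′ end because reads start at the poly(A) tail. That was not tested on these genes. Other exons held 29 DRACH positions of Zfp genes. The 12 in exons of 400 bases or more had 3 sites in DMSO, and the 17 in shorter exons had 0, which allows up to 17.6% (3 positions of 17). The corresponding shares of all genes were 21.3% and 0.594%. The Zfp sites outside the last exon were on exon 9 of 12 of Zfp598 and on exon 1 of 6 of Zfp622. All 138 covered positions of Zfp622 were on that exon, and none on its exons nearer the poly(A) tail. They include 6 of the 29 DRACH positions. Whether these reads come from the annotated Zfp622 mRNA was not tested.

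Within the last exon, the spread of the sites differed between genes. In Zfp57, whose covered positions all lay on the 1214-base last exon, 10 of 21 DRACH positions were sites, from 1005 to 4 bases before the end of the stop codon. In Zfp64, 8 sites fell within 193 bases, chr2:168925728-168925920 on the minus strand, and 13 of its 26 last-exon DRACH positions were sites in DMSO. In Zfp553, 10 of its 11 sites were in coding sequence, the farthest 1624 bases before the end of the stop codon. In Zfp296, the 5 sites lay 434 to 37 bases before the end of the stop codon, and the 8 DRACH positions before them were at 18.8% or less. Zfp706 had few sites for its length. Its 516 covered positions were all on the last exon, which holds 3′ UTR and no coding sequence. Of their 49 DRACH positions, 45 (91.8%) were below 5% in DMSO, and 1 was a site. The share below 5% was 59.1% over all Zfp genes, Zfp706 included, and 68.6% over all protein-coding genes.

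**Figure D3:**
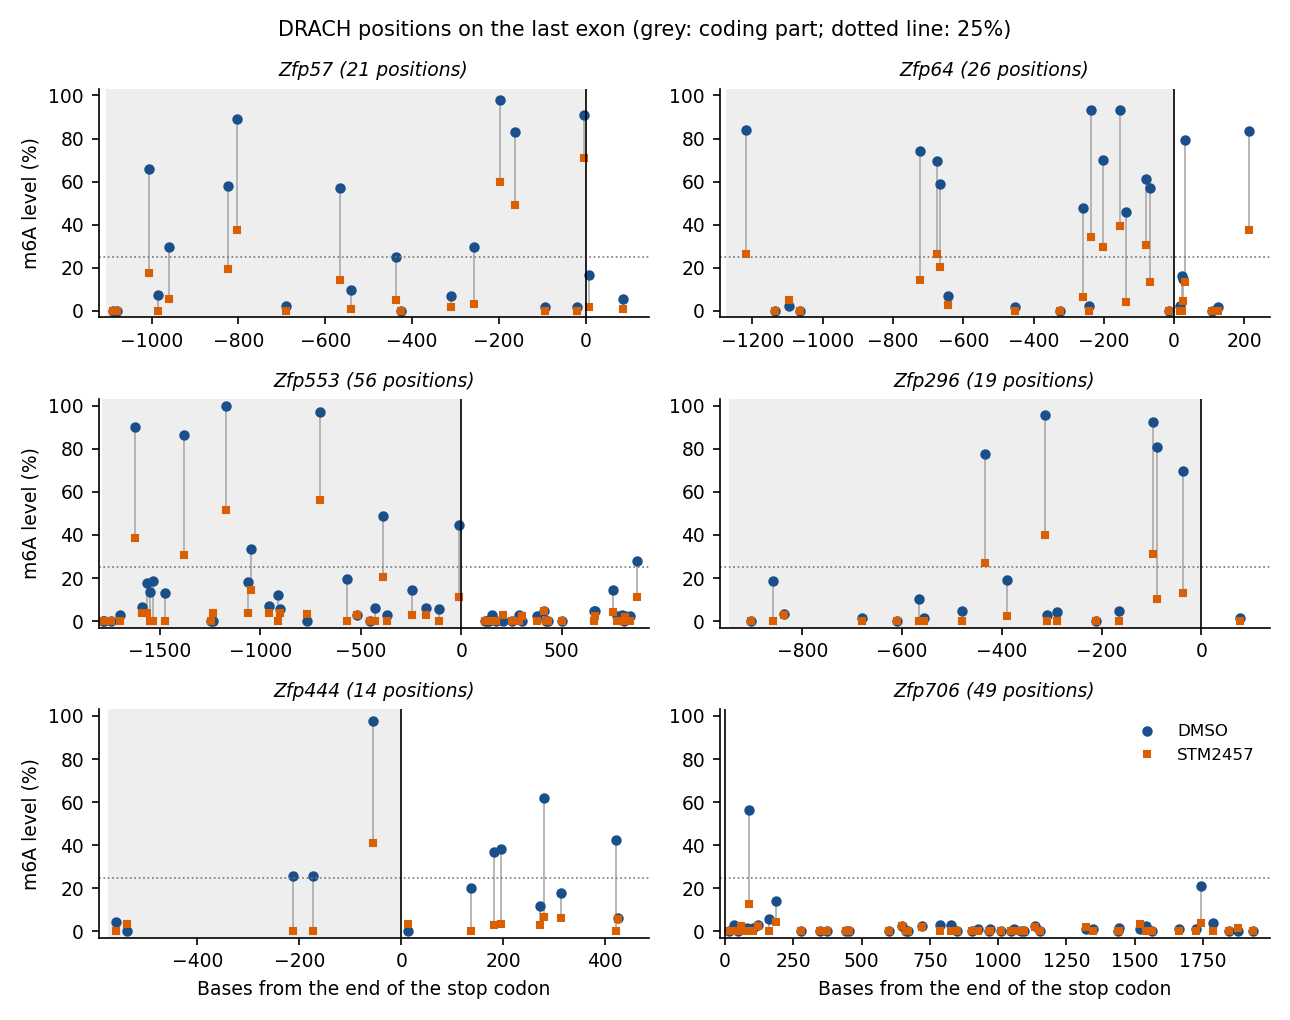
m6A level (y axis, percent) in DMSO (circles) and STM2457 (squares) at each covered DRACH position on the last exon of 6 Zfp genes, by distance in bases from the end of the stop codon (x axis); grey marks coding sequence. Sites at 25% or more are spread over the coding part in Zfp57, Zfp64 and Zfp553, lie within 434 bases of the end of the stop codon in Zfp296, and number 1 in Zfp706.

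Sites were found both inside the fingers and in the coding sequence outside them. Fingers were found by the spacing of the paired cysteines and histidines in the translated annotation. Of 46 coding DRACH positions inside a finger, 15 were at 25% or more in DMSO (32.6%, 19.5 to 48.02). Outside fingers, 31 of 99 were (31.3%, 22.4 to 41.4), and the pooled levels were 23.8% and 23.6%, a difference of 0.123 percentage points (-1.83 to 2.12). The positions outside include 18 of Zfp598 and 6 of Zfp207, which had none inside. On the last exon past its first 100 bases, 12 of 34 positions inside were sites (35.3%, 19.7 to 53.5) and 27 of 64 outside (42.2%, 29.9 to 55.2), with pooled levels of 26.3% and 32.3%. Single genes varied. In Zfp296, 1 of 9 positions inside a finger and 4 of 9 outside were sites, and in Zfp57 3 of 4 and 7 of 15. The linker T-G-E-K-P that joins many fingers was read on the annotated principal transcript of each gene only. There it held 32 covered adenosines, on 2 genes, and 0 sites in DMSO. Only 1 of those 32 was in DRACH, a position of Zfp553 with 2 m6A calls of 34 (5.88%, 0.72 to 19.7). Positions off the principal transcripts, 43 of them DRACH positions of Zfp64 and Zfp207, were not read for the linker.

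Repeated finger sequences gave near-identical sites within 1 mRNA, and their levels were not always equal. The 2 Zfp771 copies printed above share 19 of 21 bases. The copy 59 bases into the last exon had 15 m6A calls of 46 in DMSO (32.6%, 19.5 to 48.02). The copy 395 bases into it had 50 of 54 (92.6%, 82.1 to 97.9), so the intervals do not overlap. In STM2457 they were at 4.08% and 22.8%.

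Zfp553 gave 2 further pairs, picked by the same rule of at least 16 equal bases of 21 with at least 1 site. Its GGACG copies at chr7:127235584 and chr7:127235824, equal in 20 of 21 bases, were at 30.3% (10 of 33) and 25.8% (8 of 31), and did not differ beyond counting error. Its TGACA copies at chr7:127236659 and chr7:127236938, equal in 18 of 21, were at 48.6% (18 of 37) and 5.56% (2 of 36), with intervals that do not overlap. The GGACG pair and a GAACT site at chr7:127235668, at 86.2% (25 of 29), all have their adenosine as the first base of the first threonine codon of R-T-H-T-G, the end of a finger. The remaining 5 covered adenosines at this place, in Zfp553 and Zfp771, lay in GTACA or GCACG and were between 2.22% and 15.4%.

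The share of sites differed between the motifs of 5 bases around the adenosine. GGACT was methylated most often, with 20 of 26 Zfp positions at 25% or more (76.9%, 56.4 to 91.0) and a pooled level of 64.3%. The same motif was at 34.9% over all genes, where 55.2% of 2436 positions were sites. GGACA had 12 of 22 Zfp positions (54.5%, 32.2 to 75.6), against 31.9%, and GGACC with 7 of 19 (36.8%, 16.3 to 61.6), against 19.1%. The other DRACH motifs had 25 of 209 (11.96%, 7.89 to 17.1), against 8.94%. Among these, GAACT had 5 of 10 (50%, against 35.9%) and AGACT 5 of 12 (41.7%, against 31.9%). The lower interval ends of GGACT and GGACA lay just above the all-gene shares, and the intervals of GGACC and of the other motifs as 1 class included them.

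STM2457 lowered m6A at most Zfp sites. Each site was compared by a two-sided Fisher's exact test of its m6A and unmodified calls, adjusted over the 6159 sites of all genes by Benjamini-Hochberg, which tests these 2 libraries and not the conditions. Of the 75 Zfp sites, 66 were called lower at an adjusted p under 0.05 (88.0%) and 0 higher. Over all sites 91.6% were called lower and 0.292% higher, so the share in Zfp genes was near the background. The sites were chosen by their level in these same 2 libraries, and 74 of the 75 passed the limit in DMSO, so the counts are not free of that choice. With every covered DRACH position tested instead, 71 of 276 were called lower (19.5% over all genes) and 0 higher. Summed over DRACH positions, the Zfp genes fell from 17.8% with DMSO to 6.29% with STM2457, a relative decrease of 64.7%. All protein-coding genes together fell from 7.87% to 2.03%, a larger relative decrease of 74.2%. Each of the 13 Zfp genes with DRACH positions had a lower level with STM2457, as had 2373 of the 2495 such genes of the background. For Zfp740 this rests on 2 m6A calls with DMSO and 1 with STM2457. Outside DRACH the level of the Zfp genes was 1.03% with DMSO and 0.828% with STM2457.

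Every site was called lower in Zfp207 (5 sites), Zfp598 (6), Zfp622 (2), Zfp706 (1), Zfp57 (10), Zfp296 (5), Zfp444 (7) and Zfp771 (5). The 9 uncalled sites were 5 of 11 in Zfp553, 2 of 17 in Zfp64, 1 of 2 in Zfp428 and 1 of 4 in Zfp593. Those of Zfp553 had 27 to 53 valid calls, and 4 of its 5 differences had adjusted p-values from 0.0532 to 0.167.

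The motif of the uncalled sites was mostly not DRACH. Of 64 DRACH sites of Zfp genes, 62 were called lower (96.9%, against 97.5% for all genes), and of 6 sites in DRACG, 4 were (66.7%, against 97.2% of 176). The 5 sites in other motifs were not called, against 28.2% called over all 518 such sites. Zfp428 at TAATG, printed above, had 28 m6A calls of 62 in DMSO (45.2%) and 13 of 31 in STM2457 (41.9%, adjusted p = 0.836, Fisher's exact test). Zfp593 at GCAGC, printed above, had 12 of 43 (27.9%) and 8 of 28 (28.6%, adjusted p = 1, Fisher's exact test). Zfp64 had GCATC at 18.5% and 28.6% and CCAGT at 27.0% and 14.8%, and Zfp553 had GGATT at 48.1% and 25.9%. These 5 motifs lack the AC core of DRACH. Failed calls, which do not enter the level, numbered 66 and 31 at the Zfp428 site and 53 and 52 at the Zfp593 site, while at the 64 DRACH sites they were at most 17 in DMSO and 25 in STM2457. With failed calls counted in the denominator, the Zfp428 and Zfp593 sites fell below 25% in both libraries and were no longer sites. Why these calls failed was not tested.

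Of the 74 Zfp sites at 25% or more in DMSO, 3 had a relative decrease under 25%, against 4.31% of such sites over all genes. They were the Zfp428 and Zfp593 sites just given and the Zfp57 site at the stop codon. The Zfp57 adenosine lies in the last sense codon, and the T of its GGACT motif is the first base of the stop codon. It had 98 m6A calls of 108 in DMSO (90.7%, 83.6 to 95.5) and 91 of 128 in STM2457 (71.1%, 62.4 to 78.8), a relative decrease of 21.7%. The difference was called (adjusted p = 0.000214, Fisher's exact test).

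**Figure D4:**
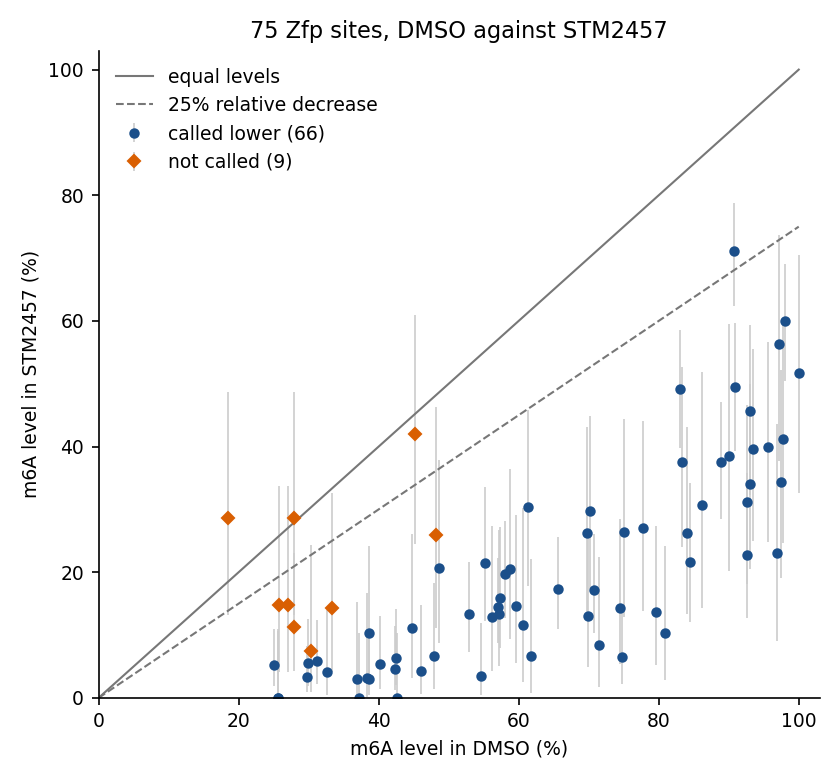
m6A level of the 75 Zfp sites in DMSO (x axis, percent) and STM2457 (y axis, percent, with 95% exact binomial intervals); circles were called lower and diamonds were not called. Of the 66 called sites, 65 lie below the dashed line of a 25% relative decrease, and 1 Zfp57 site lies above it.

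The size of the decrease varied with the starting level. The median relative decrease over the 74 sites was 73.9% (quartiles 57.7 and 84.5), against 80.2% over the 6056 sites of all genes. In STM2457, 26 of the 74 sites (35.1%) were still at 25% or more, against 20.8%. In DMSO 15 of the 75 sites were at 90% or more (20%, against 12.3%). Over DRACH sites, the medians were also taken within ranges of the DMSO level, with Zfp genes given before all genes. From 25% to 50% the median decreases were 87.1% (20 sites) and 87.0%, and from 50% to 75% they were 75.3% (20 sites) and 82.2%. From 75% to 90% they were 65.3% (9 sites) and 73.6%, and at 90% or more 57.7% (15 sites) and 55.2%.

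The genes kept m6A to different degrees. Over summed DRACH calls, among the 9 genes with at least 10 such positions, Zfp593 lost most, from 16.2% to 2.10%, a relative decrease of 87.0%. Zfp444 followed with 80.3%, from 28.1% to 5.53%. Zfp57 lost least, from 32.2% to 13.9% (56.8%), which placed its decrease at the 6.63 percentile of the 1584 genes with 10 positions, while Zfp593 was at 85.9. Zfp553 lost 64.2%, Zfp64 67.7%, Zfp207 69.9%, Zfp706 71.5%, Zfp296 73.2% and Zfp598 78.3%. With fewer positions, Zfp428 lost 75.6%, Zfp771 71.9%, Zfp622 64.4% and Zfp740 32.7%, the last from 2 m6A calls to 1. The number of valid calls per gene, scaled to the library total, changed by a median log2 of 0.14, against 0.12 for all genes, with Zfp428 at -0.68 and Zfp57 at 0.62.

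The sites of Zfp57 illustrate the range within 1 mRNA. All 10 were called lower. Beside the limit of 25%, its GAACC site at chr17:37010084 was just inside at 25%, and a GGACG position of Zfp771 was just outside at 24.1%. The sites that started at or below 30% fell to between 3.28% and 5.62%. The GAACC site printed above had 100 m6A calls of 102 in DMSO (98.0%, 93.1 to 99.8) and 69 of 115 in STM2457 (60%, 50.4 to 69.0; adjusted p = 3.57e-12, Fisher's exact test). GAACC had 2 of 17 Zfp positions at 25% or more (11.8%, 1.46 to 36.4), against 2.75% over all genes. GGACT sites followed at 88.9% in DMSO and 37.5% in STM2457, and at 83.0% and 49.1%. The last 3 sites before the stop codon thus kept the highest levels of this mRNA in STM2457, 49.1% to 71.1%.

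Zfp296 had 5 sites, all in coding sequence, between 69.9% and 95.6% in DMSO. In STM2457 they were at 10.3% to 40.0%, and all 5 were called. Its GGACT site 314 bases before the end of the stop codon had 65 m6A calls of 68 (95.6%) and then 16 of 40 (40.0%). The AAACT site 89 bases before that end had 51 of 63 (81.0%) and 4 of 39 (10.3%), a relative decrease of 87.3%.

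Among the 25 Zfp sites with at least 50 valid calls in both libraries, the 10 highest in DMSO were 4 of Zfp57, 3 of Zfp771, 2 of Zfp207 and 1 of Zfp593. Their levels were between 70.8% and 98.0%, and all 10 were called lower. Zfp593 at GGACC in its 3′ UTR had the largest relative decrease of the 10, 91.3%, from 74.7% to 6.49% (adjusted p = 1.13e-19, Fisher's exact test). Zfp771 at GGACT, 31 bases after the stop codon, had 54 of 58 (93.1%) and 26 of 57 (45.6%). Its site 85 bases after the stop codon had 49 of 58 (84.5%) and 13 of 60 (21.7%).

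Other genes at high levels had fewer calls. The GGACA site of Zfp553 printed above had 33 m6A calls of 33 in DMSO and 15 of 29 in STM2457 (51.7%). Zfp444 had a GGACT site at 97.8% (44 of 45) that went to 41.2% (14 of 34), and 3 of its weaker sites were at 0 of 32 to 0 of 34 calls in STM2457, which allows up to 9.38%. Zfp598 had a GGACA site on exon 9 at 96.9% (31 of 32) and 23.1% (6 of 26). Its GGACT site on the last exon was at 97.5% (39 of 40) and 34.3% (12 of 35). In Zfp622, GGACT went from 55.1% (43 of 78) to 21.5% (14 of 65) and GGACG from 38.6% (32 of 83) to 3.08% (2 of 65). The Zfp706 site printed above, 74 bases into the last exon, went from 56.2% (36 of 64) to 12.8% (5 of 39).

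METTL5 is the methyltransferase that places m6A on 18S rRNA, and the clones were compared with WT to ask whether its loss changes m6A on mRNAs. In the Mettl5 dataset, 466 positions of 3 Zfp genes had more than 25 valid calls in all 3 libraries, 50 of them in DRACH. Zfp598 was the fourth gene and had none. Zfp207 was the only Zfp gene with sites, and it had 5. None was called in clone #1 or clone #2 by Fisher's exact test adjusted over 1847 sites, and 0 of the 5 had an unadjusted p under 0.05 in either clone. Over all sites 0.0541% were called in clone #1, 0.162% in clone #2 and 0.0541% in both in the same direction. With 5 sites and 56 to 76 valid calls at each, small differences were not detectable.

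At the Zfp207 site printed above, 140 bases after the stop codon, 62 of 66 calls were m6A in WT (93.9%, 85.2 to 98.3). Clone #1 had 57 of 60 (95%, 86.1 to 99.0) and clone #2 69 of 76 (90.8%, 81.9 to 96.2). DMSO had 100 of 110 (90.9%) and STM2457 49 of 99 (49.5%). The library with STM2457 was thus the only one of the 5 below 90%.

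The other 4 sites of Zfp207 were likewise lowest in STM2457. TGACT, 97 bases after the stop codon, was at 70.8% in DMSO, 71.6% in WT, 78.9% in clone #1, 76.1% in clone #2 and 17.2% in STM2457. GAACT, 132 bases after it, was at 52.9%, 56.1%, 61.7%, 49.3% and 13.3% in that order of libraries. GGACA, in coding sequence, was at 42.3%, 44.8%, 48.2%, 50% and 4.65%, and GAACT, 186 bases after the stop codon, at 31.1%, 30.8%, 36.1%, 25.4% and 5.88%. At each of the 5 sites the 4 libraries without the inhibitor lay within overlapping intervals, and the library with STM2457 lay below all of them.

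**Figure D5:**
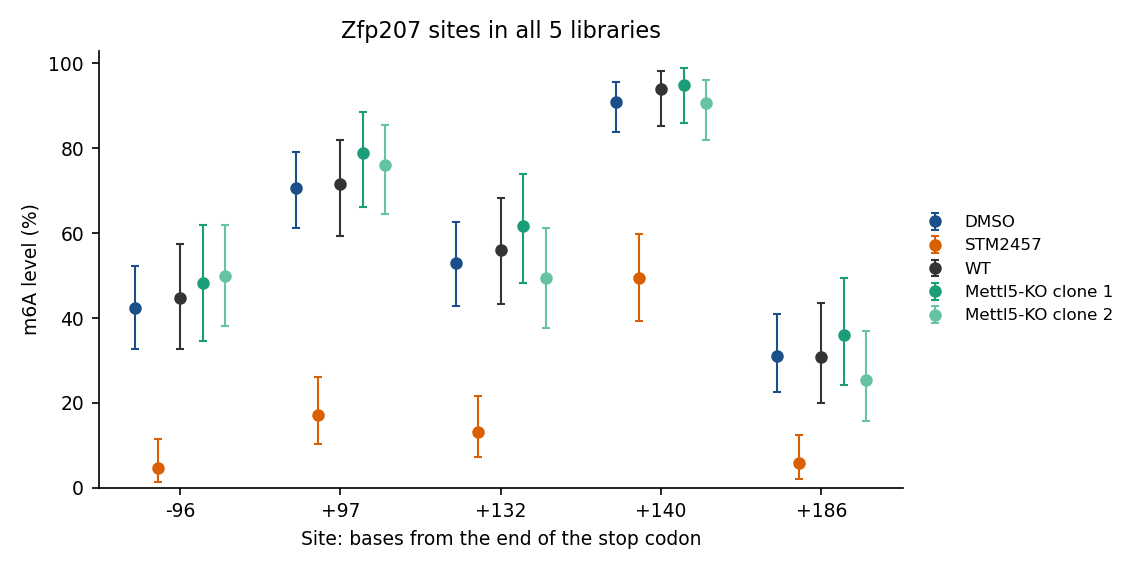
m6A level (y axis, percent, with 95% exact binomial intervals) of the 5 Zfp207 sites in DMSO, STM2457, WT and both Mettl5-KO clones, by distance in bases from the end of the stop codon (x axis). STM2457 is lowest at every site, and the intervals of the other 4 libraries overlap.

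Summed over the 23 DRACH positions of Zfp207, which both datasets covered, the level was 16.2% in DMSO, 17.0% in WT, 17.7% in clone #1, 17.4% in clone #2 and 4.87% in STM2457. Zfp706 had 22 DRACH positions in the Mettl5 dataset, none of them a site, and was at 0.331% in WT, 1.37% in clone #1 and 0.62% in clone #2. Over the same 22 positions Zfp706 was at 0.90% in DMSO and 0.565% in STM2457. Zfp106, an RNA-binding protein gene, was covered in the Mettl5 dataset alone, with 5 DRACH positions. It had 0 m6A calls of 134 in WT, which allows up to 2.24%, 2 of 140 in clone #1 and 2 of 145 in clone #2.

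Genes that act with KRAB zinc finger proteins in silencing were read beside them, from a list of 18 such as Trim28, the corepressor bound by KRAB domains. Of the 18, 9 were covered, and 3 carried the 10 sites found. Daxx, a histone H3.3 chaperone, had 8 sites, all called lower, the highest from 94.9% to 48.6%. Hdac2, a histone deacetylase, had 1, called lower from 72.4% to 15.2%. Trim28 had 1 that was not called, at 22.6% in DMSO and 27.8% in STM2457. The background for these counts is the same 91.6%. Of the Zbtb, Zscan, Zkscan and Znf genes, 1 was covered, with 0 sites.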

How the data were processed

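Direct RNA reads were split by barcode (WarpDemuX), and dorado gave bases, modifications and alignments on mm10. modkit pileup then summed the calls. The deposited values are counts per position and strand of valid, m6A, unmodified, other-modification and failed calls, and a percent, which the authors gave as m6A over valid calls. Failed calls are left out of that percent. Over Zfp positions they were 7.97% to 9.20% of calls. Every deposited position had at least 25 valid calls in each library of its dataset. Total valid calls per library were 17897440 to 71574467, and the median coverage of Zfp positions was 32 to 55. Coverage favours 3′ ends and abundant mRNAs, and most Zfp genes were not analysed here.

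Levels were computed from the counts. Positions had more than 25 valid calls in every library of a dataset, and sites 25% or more in at least one, after the methods of the study. Exons were those of GENCODE M21 protein-coding genes, in place of the RefSeq exons of the study. No Zfp position was on 2 genes, and the transcript base was A at 99.8% of Zfp positions. Place was read on the transcript with most covered positions, because the principal transcript (APPRIS tag, then longest coding sequence), the main choice of the design, missed 43 DRACH positions of Zfp64 and Zfp207. Values on the principal transcript are in the closing section, and the T-G-E-K-P linker was read on that transcript alone. Coding sequence was translated to find fingers (C, 2 to 4 residues, C, 12 residues, H, 3 to 5 residues, H). Motifs were read on the transcript strand. A two-sided Fisher's exact test compared the libraries at each site, and its p-values were adjusted by Benjamini-Hochberg over every site of the dataset. Tests ran in scipy 1.17.1 on Python 3.11.15, with tables read by pandas 2.3.3 and drawn calls by numpy 2.4.6. Intervals are exact binomial 95%. On simulated calls at the coverage of the 6159 sites of STM2457 against DMSO, the test found 43.5% of 200 sites lowered to 25% of their level, with 4 false calls, and for the clones 64.0% of 200 among 1847, with 0. Simulated sites started at the level pooled over the compared libraries, and only those 200 were lowered. In the real calls 91.6% of sites were called lower after STM2457, so the 43.5% does not give the power of the test there.

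Named were all covered Zfp genes, the 10 highest sites with at least 50 valid calls in both libraries and every site with a relative decrease under 25%; copies within a gene and other sites were named after their values were seen. The genes and lists were chosen with earlier results of these data known.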

Additional observations from a re-analysis of the deposited data

How the results depend on the processing

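With at least 50 valid calls in every library, the median gene level in DMSO was 1.98% (8 genes), 25 of 25 Zfp sites were called lower (94.9% of 2741 over all genes), and the last exon exceeded other exons by 16.5 percentage points of DRACH level. On the principal transcripts, without the 43 positions off them, that difference was 9.28, and 32.7% of 98 coding and 11.5% of 104 3′ UTR DRACH positions of the last exon were sites. The difference was 10.96 on the transcripts with most covered positions and 16.8 as the median within the 3 genes that cover both. Over DRACH alone the median gene level was 16.2%. Sites per 100 DRACH positions were 34.1 at a limit of 10% and 15.9 at 50%. The median relative decrease over genes was 71.5%. On the principal transcripts the T-G-E-K-P linker lay 19.9 percentage points below other last-exon coding positions, from 1 DRACH position. Whole fingers, an alternative chosen after seeing the data and read on the transcripts with most covered positions, lay 0.123 percentage points above other coding positions. With sites at 10% or more in either library, 82 of 160 Zfp sites were called lower (53.6% over all genes) and 1 higher by Fisher's exact test, a Zfp296 position at chr7:19580132, named after its values were seen, at 0% of 53 calls in DMSO and 11.8% of 34 in STM2457 (adjusted p = 0.0396). With every DRACH position tested, 71 of 276 were called lower (19.5% over all genes) and 0 higher. Counting these numbers called lower, 26 other values, failed calls in the denominator and an adjusted p under 0.01 among them, stayed within counting error, or within 1.5 times for counts. Without clone #1 or without clone #2, 0 Zfp sites were called in each case. With 50 valid calls the DRACH level of Zfp706 was 2.17% and of Zfp771 55.2%, and 31 of 33 gene values and 32 of 32 site calls did not move. Genes and sites that no longer passed a limit are not in these counts. The Zfp428 and Zfp593 sites outside DRACH dropped out with 50 valid calls and with failed calls in the denominator.

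No paired analysis was possible because the groups compared share fewer than 2 replicate numbers. With 1 library per condition, differences between cultures cannot be told apart from the treatment. The WT and clones form another dataset than DMSO and STM2457, and the sources used here do not name their sequencing run. Any effect of line or run on levels across datasets cannot be told apart. At 30 valid calls a level carries wide counting error, as in Zfp553.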

Other observations

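The deposited files also count other modifications (inosine or 2′-O-methyladenosine in the calling model). Zfp207 had 2 adenosines where these calls were frequent in all 5 libraries. At chr11:80395408, in coding sequence, they were 37.3% of 67 valid calls in DMSO, 25.9% of 58 in STM2457, 35.1% of 37 in WT, 31.4% of 35 in clone #1 and 28.9% of 45 in clone #2. At chr11:80395895, in the 3′ UTR, they were 27.9% of 68, 31.5% of 54, 43.8% of 32, 24.3% of 37 and 39.0% of 41 in the same order. The intervals of the 5 libraries overlap at each position. At 32 to 68 calls such overlap cannot show equal levels, and whether these calls moved with the inhibitor was not tested.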
